A study of Homo sapiens with 24 samples.

Results

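Antisense transcripts are RNAs read from the strand opposite to another gene, the sense gene, whose name they carry. The genes described here are those whose annotated symbol ends in -AS, with or without digits, and whose mean in at least 1 of 8 groups reached 4.02, the median of all array rows and arrays on the log2 scale. Of 489 antisense genes on the array, 267 passed that filter and 222 did not. These 267 stood among 10641 named genes that passed the same filter, out of 14884 named genes. The rule thus chose the genes on signal level, and the choice was made with earlier results of these data known. It read levels with and without metformin alike: 18 members reached the minimum only in metformin groups and 9 only in control groups. The members just inside the minimum had their highest group mean at 4.03 (CLIP1-AS1, THAP7-AS1 and SPAG5-AS1), and those just outside had 4.02 (ADPGK-AS1, SEC24B-AS1 and ENTPD3-AS1).

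Many long noncoding RNAs start near, inside or beyond a protein-coding gene on the other strand. Some act in cis on the sense gene, by transcription through its promoter or by pairing with its mRNA, and others have no known effect on it. In brain, BACE1-AS, the antisense transcript of the beta-secretase gene, is known for pairing with BACE1 mRNA and making it more stable. Antisense symbols record position, not function, so the set holds RNAs of unrelated roles.

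The study set 10 mM metformin for 24 h, labelled as an inhibitor of respiratory complex I, against no treatment in 4 established human acute myeloid leukaemia lines. The groups were HL60 with metformin and HL60 control, KG1a with metformin and KG1a control, MOLM14 with metformin and MOLM14 control, and U937 with metformin and U937 control. Each group had 3 arrays, lettered A to C, hybridised with biotin-labelled cRNA from total RNA. HL60 is a promyelocytic line, KG1a a CD34-positive immature line, and MOLM14 and U937 are monocytic lines. The labels class KG1a and MOLM14 as high and HL60 and U937 as low in oxidative phosphorylation (OXPHOS), and the stated aim was a gene signature of high OXPHOS. Each line is one culture model of one leukaemia, so the 4 lines are 4 cell sources. The labels do not say whether the 3 arrays of a group are separate cultures, and the p-values reflect array-to-array spread alone, which may be technical.

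Array medians lay between 3.99 and 4.08 and arrays of one group correlated at r between 0.983 and 0.993 over all rows, with at most 5 identical values in any pair. Control array C of HL60, control array C of U937 and metformin array A of U937 correlated least with the other two of their groups, and counts that rest on them are given without them. Of the markers of the lines, untreated CD34 was at 11.2 in KG1a and FLT3 at 10.4 in MOLM14, and both were near the lower end elsewhere. MEIS1, listed with FLT3 for MOLM14, was at 6.80 there but also at 6.53 in untreated U937. MPO was at 12.5 in HL60 and 8.93 in MOLM14, and LYZ at 9.43 in U937 and 9.88 in MOLM14. The monocytic markers LYZ and CD4 were also present in untreated HL60, at 7.26 and 6.18. CD4 was at 6.39 in U937 and 7.82 in MOLM14. The other granulocytic markers were not highest in HL60. Untreated AZU1 was at 6.97 in HL60, 8.70 in U937 and 10.1 in MOLM14, and PRTN3 at 11.4, 11.8 and 12.3 in the same order. The progenitor marker PROM1 was at 4.02 in KG1a and the monocyte marker CSF1R at 4.37 in U937, both near the lower end. CSF1R was at 5.99 in untreated MOLM14. Of the general myeloid markers, untreated SPI1 was at 4.65 in KG1a and at 7.52 to 7.94 in the other lines. ANPEP was at 9.29 in KG1a, 9.385 in U937, 5.51 in HL60 and 3.81 in MOLM14. CD68 ran from 5.035 in KG1a to 9.73 in MOLM14. The epithelial markers EPCAM and KRT19 were at or under 4.04 and 3.82 in every group. PECAM1, also listed as a marker of other cell types, was not low throughout. In controls it was at 5.54 in KG1a, 5.94 in U937, 6.65 in MOLM14 and 3.31 in HL60. CD14 was at 3.44 to 3.72 in every untreated line, near the lower end of the signal range, in the monocytic lines too. As these are bulk RNA samples, fewer cells expressing a gene and less RNA per cell cannot be told apart.

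The sequences around the starts of the pairs with the clearest changes are shown so that the arrangement of antisense and sense gene can be seen. Each is the RefSeq promoter window of GRCh38.p14, from 250 bases before to 50 bases after the annotated start, printed 5′ to 3′ on the gene's own strand. Capitals mark matches, on either strand, to CCAAT (the NF-Y element), TGATGNAA (the C/EBP-ATF element core), the NRF1 element (GCGC, any base, then TGCGC) or CGGAAG (the ETS core).
VLDLR-AS1, chr9:2622324-2622623, minus strand: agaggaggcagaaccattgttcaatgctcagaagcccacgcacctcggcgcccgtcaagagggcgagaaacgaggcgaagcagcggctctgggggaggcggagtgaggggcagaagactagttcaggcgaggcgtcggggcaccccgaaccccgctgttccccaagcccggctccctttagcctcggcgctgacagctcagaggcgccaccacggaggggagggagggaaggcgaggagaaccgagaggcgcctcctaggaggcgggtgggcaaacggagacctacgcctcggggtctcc
VLDLR, chr9:2621537-2621836, plus strand: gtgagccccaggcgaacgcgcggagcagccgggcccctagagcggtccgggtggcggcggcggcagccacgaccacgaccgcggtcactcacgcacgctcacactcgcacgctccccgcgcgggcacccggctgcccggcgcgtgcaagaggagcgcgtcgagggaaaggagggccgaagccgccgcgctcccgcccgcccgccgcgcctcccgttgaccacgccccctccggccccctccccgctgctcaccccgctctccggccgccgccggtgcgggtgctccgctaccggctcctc
PCNA-AS1, chr20:5119336-5119635, plus strand: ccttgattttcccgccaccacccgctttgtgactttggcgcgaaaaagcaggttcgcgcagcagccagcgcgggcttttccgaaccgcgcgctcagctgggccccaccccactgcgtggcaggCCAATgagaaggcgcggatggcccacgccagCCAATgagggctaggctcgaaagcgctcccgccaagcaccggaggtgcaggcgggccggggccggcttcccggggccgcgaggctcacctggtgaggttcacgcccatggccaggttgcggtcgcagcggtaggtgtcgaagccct
PCNA, chr20:5126573-5126872, minus strand: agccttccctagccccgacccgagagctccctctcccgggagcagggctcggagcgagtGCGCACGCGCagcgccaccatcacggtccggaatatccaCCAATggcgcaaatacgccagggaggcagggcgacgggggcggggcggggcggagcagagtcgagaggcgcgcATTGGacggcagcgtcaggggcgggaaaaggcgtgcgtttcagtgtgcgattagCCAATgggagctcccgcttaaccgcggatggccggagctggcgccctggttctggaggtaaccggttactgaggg
NHSL1-AS1, chr6:138691418-138691717, plus strand: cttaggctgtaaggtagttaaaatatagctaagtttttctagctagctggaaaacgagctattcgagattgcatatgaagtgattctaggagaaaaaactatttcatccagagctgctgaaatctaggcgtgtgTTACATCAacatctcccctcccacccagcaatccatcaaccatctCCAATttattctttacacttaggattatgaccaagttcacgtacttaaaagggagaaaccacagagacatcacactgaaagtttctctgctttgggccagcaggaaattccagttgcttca
NHSL1, chr6:138572520-138572819, minus strand: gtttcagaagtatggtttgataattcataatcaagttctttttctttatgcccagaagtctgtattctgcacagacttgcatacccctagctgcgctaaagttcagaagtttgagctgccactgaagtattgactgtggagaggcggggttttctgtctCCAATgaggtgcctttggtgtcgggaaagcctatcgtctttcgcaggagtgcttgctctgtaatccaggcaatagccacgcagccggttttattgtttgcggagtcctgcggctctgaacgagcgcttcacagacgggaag
GABPB1-AS1, chr15:50353924-50354223, plus strand: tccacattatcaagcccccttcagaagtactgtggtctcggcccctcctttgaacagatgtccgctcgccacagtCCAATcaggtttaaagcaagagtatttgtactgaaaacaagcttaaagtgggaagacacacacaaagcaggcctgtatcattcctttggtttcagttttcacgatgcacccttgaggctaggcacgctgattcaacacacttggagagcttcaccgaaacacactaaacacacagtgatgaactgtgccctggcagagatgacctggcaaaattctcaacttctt

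The VLDLR-AS1 start lay inside VLDLR, 586 bases from the VLDLR start, and neither window held any of the 4 letter patterns. PCNA-AS1 started inside PCNA, 7036 bases from its start. The PCNA-AS1 window had 2 CCAAT matches, and the PCNA window had 3 CCAAT matches and 1 NRF1 element match. The NHSL1-AS1 window held a TGATGNAA match and a CCAAT match. The NHSL1-AS1 start lay 119099 bases upstream of the NHSL1 start whose window is printed above. Other annotated starts of NHSL1 were not compared. The GABPB1-AS1 start was inside GABPB1, 1024 bases from the GABPB1 start. Among the 207 members with a RefSeq promoter, TGATGNAA occurred in 3 (1.45%), against 3.67% of all 27305 promoters. CCAAT occurred in 36.7% of the members' promoters and in 35.7% of all, CGGAAG in 19.8% and 19.9%, and the NRF1 element in 9.18% and 6.28%. Among the 8077 promoters of genes tested, the shares were 1.77% for TGATGNAA, 36.5% for CCAAT, 31.3% for CGGAAG and 10.8% for the NRF1 element. The order against the members thus depended on the promoters compared for the NRF1 element alone. The members' share was under both comparison shares for TGATGNAA and CGGAAG and over both for CCAAT. A match describes the letters in the window and does not show that a factor binds there.

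Antisense genes were low on these arrays. Their 24-array means had a median of 4.29 and quartiles of 4.02 and 5.02, against a median of 5.78 for the 144 sense genes that passed the filter and 5.65 for all genes tested. Probe brightness is not comparable between genes, so these medians describe the probe signals and not RNA amounts. The brightest members were THAP9-AS1 (7.51), BACE1-AS (7.45), PSMA3-AS1 (7.21), TMPO-AS1 (7.16) and GABPB1-AS1 (7.10). In 131 members every group mean reached the minimum, and in 17 only 1 group mean did. A signal near the lower end of the scale compresses a fold change.

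Averaged over the 4 lines, metformin changed 64 of the 267 members at an adjusted p under 0.05, by limma over all genes tested. Of these, 47 rose and 17 fell. Over all genes tested, 32.3% passed, 16.3% higher and 16.1% lower. Of the members, 24% passed, 17.6% higher and 6.37% lower. The median change of the members was 0.02 on the log2 scale, and that of all genes tested was -0.01. Changes of at least 1.5-fold on this mean were few, with 3 members (1.12%) against 0.705% of all genes: VLDLR-AS1 and BACE1-AS were higher and PCNA-AS1 was lower.

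Signal level went with the share that passed. Of the 89 members with the lowest mean levels, 12.4% passed, against 11.6% of other genes in the same range of levels. Of the 89 in the middle the shares were 15.7% and 15.9%, and of the 89 at the top 43.8% and 38.5%. Other noncoding classes had more rises than falls too: 26 rose and 3 fell of 158 LINC genes, and 21 rose and 5 fell of 84 intronic, overlapping or divergent transcripts. Among the 144 sense genes, 31 rose and 25 fell. Of the 18 members over the minimum only with metformin, 5 rose and none fell, and of the 9 over it only in controls none passed. This belongs with the way the filter works and is not evidence on the direction.

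**Figure D1:**
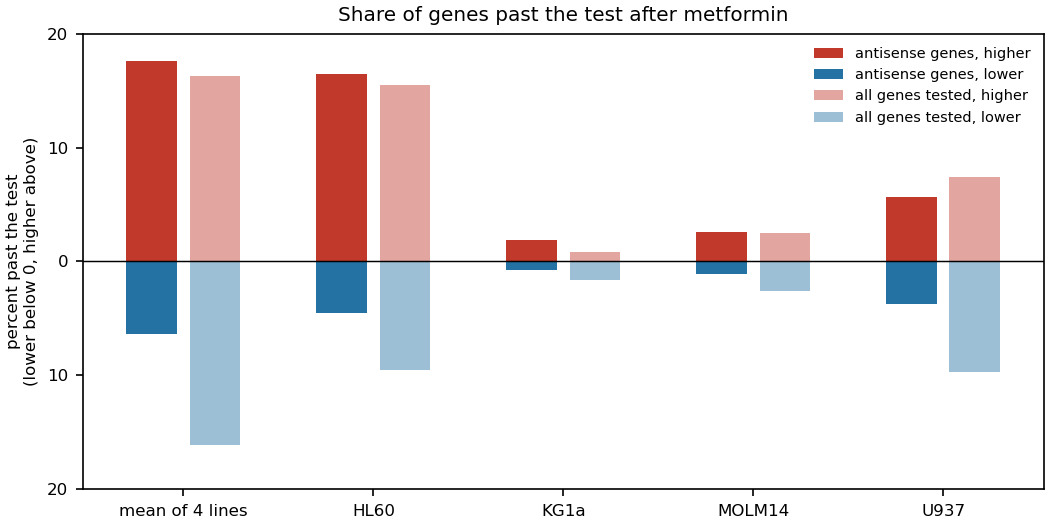
Percent of antisense genes (267) and of all genes tested (10641) past the adjusted p threshold, for the mean of 4 lines and for each line, with genes higher with metformin above 0 and genes lower with it below 0. On the mean of 4 lines the antisense genes reach 17.6% higher and 6.37% lower, against 16.3% and 16.1% of all genes.

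The line with the most changes was HL60, with 56 members past the threshold, 44 higher and 12 lower, where 25.1% of all genes passed (15.5% higher and 9.56% lower). Without control array C of HL60 the count was 34, where 19.5% of all genes passed. The HL60 split depended on the scaling: it was 44 higher and 12 lower as deposited, 46 and 8 after centring on array medians, 37 and 13 after quantile normalisation, and 32 and 21 after centring on the median of the genes tested. That of all genes turned with it: 1649 were higher and 1017 lower as deposited, 1806 and 689 after centring on array medians, 1278 and 1539 after quantile normalisation, and 1130 and 1969 after centring on the genes tested. In U937, 15 members rose and 10 fell (9.36%), where 17.2% of all genes passed (7.46% higher and 9.74% lower), and the count was 13 in place of 25 without metformin array A. The share of all genes was then 10.7%. Without control array C of U937 the split turned, to 10 higher and 14 lower, and without all 3 arrays that lay apart it was 11 higher and 6 lower. Of all genes, 528 were higher and 1104 lower without that control array, and 428 and 880 without the 3 arrays. In MOLM14, 7 members rose and 3 fell (3.75%, against 5.06% of all genes, 2.48% higher and 2.57% lower), and 6 passed without metformin array A or without metformin array C. Of all genes, 3.17% and 3.2% passed in those fits. In KG1a, 5 members rose and 2 fell (2.62%, against 2.49% of all genes, 0.818% higher and 1.67% lower), and leaving out 1 KG1a array gave 2 to 5. The count was 2 without control array C, 3 without control array B and 4 without control array A, metformin array A or metformin array C. The shares of all genes were 0.912%, 1.3%, 1.24%, 0.921% and 1.6% in that order. At an unadjusted p under 0.05, 73 of the 267 members passed in HL60, 56 in U937, 42 in MOLM14 and 31 in KG1a. Of the 144 sense genes tested, 58, 51, 41 and 23 passed in the same order. The share of all genes at that threshold was not counted, so these counts are not read as a result about antisense genes.

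The 3 metformin and 3 control arrays of a line did not overlap in 72 members in HL60, 40 in KG1a, 58 in MOLM14 and 53 in U937. Over all genes tested they did not overlap in 37.2%, 21%, 26.4% and 29.9% of genes in those lines, against 27%, 15%, 21.7% and 19.9% of the members. No member passed the threshold as higher in one line and as lower in another. GABPB1-AS1 passed in all 4 lines, 6 members passed in 3 lines, 7 in 2, 62 in 1 and 191 in none.

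VLDLR-AS1 had the largest rise on the mean of 4 lines. Its sense gene encodes the very low density lipoprotein receptor, which takes up lipoproteins. VLDLR-AS1 was at 5.67, 5.76 and 5.66 in HL60 with metformin, against 3.97, 4.25 and 3.84 in HL60 controls. In U937 it was at 5.69, 4.85 and 4.80 with metformin, against 3.99, 3.79 and 3.91 in controls. In MOLM14 it was at 4.88, 4.76 and 4.90 with metformin, against 4.03, 4.11 and 3.93 in controls. In these 3 lines every metformin array lay above every control array, and metformin array A of U937 lay above the other two of its group. In KG1a the arrays overlapped, at 3.54, 3.38 and 3.64 with metformin and 3.39, 3.70 and 3.63 in controls, all under the level minimum. The control means of the other lines were near the minimum too, at 4.02 in HL60 and MOLM14 and 3.90 in U937. These rises thus began near the lower end, where a fold change is compressed. The change on the log2 scale was 1.67 ± 0.15 (SE, n = 3 arrays per group) in HL60 with an adjusted p of 1.83e-08, and 1.21 in U937 (8.66e-06). It was 0.83 in MOLM14 (0.00192) and -0.05 in KG1a (0.93). VLDLR itself was at 8.98, 9.04 and 8.94 in HL60 with metformin, against 7.45, 7.26 and 7.46 in controls, a change of 1.59 ± 0.08 (1.19e-12). VLDLR also rose in U937 (0.90, adjusted p 6.47e-08) and MOLM14 (0.38, 0.00711), and in KG1a it was near the lower end at 3.24 to 3.48 in all 6 arrays. The same 3 lines thus passed for both genes, and the 4-line mean was 0.92 ± 0.08 for VLDLR-AS1 (3.61e-09) and 0.70 ± 0.04 for VLDLR (8.57e-12). The antisense change minus the sense change was 0.21, with an exact permutation p of 0.0523.

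PCNA-AS1 had the largest fall. PCNA is the sliding clamp that holds DNA polymerase on its template. PCNA-AS1 was at 6.27, 6.20 and 6.28 in HL60 with metformin, against 7.68, 7.32 and 7.29 in controls. It was at 6.59, 6.98 and 6.87 in U937 with metformin, against 7.73, 7.61 and 7.62 in controls. It was at 6.10, 5.98 and 6.02 in MOLM14 with metformin, against 6.88, 6.53 and 6.54 in controls. The metformin arrays were below the controls without overlap in these lines. In KG1a, with 5.92, 6.54 and 6.54 on metformin and 6.50, 6.23 and 6.96 in controls, they overlapped. PCNA-AS1 fell by 1.18 ± 0.16 on the log2 scale in HL60 (adjusted p 7.08e-06), by 0.84 in U937 (0.000835) and by 0.61 in MOLM14 (0.0255). The MOLM14 call held in 2 of 6 fits that each left out 1 MOLM14 array. The KG1a change was -0.23 (0.541). PCNA fell by 0.70 in HL60 (1.58e-05), where it was at 8.55, 8.45 and 8.67 with metformin and 9.32, 9.41 and 9.03 in controls. On the mean of 4 lines PCNA-AS1 fell by 0.72 ± 0.08 (3.2e-07) and PCNA by 0.37 ± 0.05 (4.33e-06), and the difference of -0.34 had an exact permutation p of 0.00136. Other members at cell cycle genes did not pass on the mean: the changes were -0.11 for MCM3AP-AS1, 0.12 for CDKN2B-AS1 and 0.11 for PRC1-AS1.

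BACE1-AS rose without its sense gene passing. BACE1 is the protease that makes the first cut in amyloid precursor protein. BACE1-AS was at 7.87, 7.78 and 7.95 in HL60 with metformin, against 7.24, 7.03 and 6.47 in controls. It was at 7.33, 6.89 and 7.02 in U937 with metformin, against 6.63, 6.54 and 6.30 in controls. In MOLM14 it was at 7.98, 7.76 and 7.93 with metformin, against 7.34, 7.27 and 7.50 in controls, and in KG1a at 8.03, 8.21 and 8.37, against 7.88, 7.62 and 7.87. In all 4 lines the metformin arrays lay above the controls, and the U937 pair of groups was the lowest. The rise was 0.95 ± 0.15 in HL60 (adjusted p 3.55e-05), 0.59 in U937 (0.00689) and 0.52 in MOLM14 (0.0403), while the KG1a change of 0.42 did not pass (0.149). The MOLM14 call held in 1 of 6 fits without 1 of its arrays. Without the arrays that lay apart the U937 rise was 0.38 (0.0475). BACE1 was at 3.79, 4.01 and 3.97 in HL60 with metformin, against 3.92, 3.73 and 4.14 in controls. Only MOLM14 had BACE1 well over the level minimum, at 6.37, 6.27 and 6.37 with metformin and 6.19, 6.05 and 6.15 in controls. The BACE1 change on the mean of 4 lines was 0.10 ± 0.06 (0.228), against 0.62 ± 0.07 for BACE1-AS (7.39e-07), and the antisense change exceeded the sense change by 0.53 (exact permutation p 1.25e-05, the smallest that 160000 relabellings can give for this test). In the other lines the BACE1 signal was near the lower end, where a change would be compressed.

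**Figure D2:**
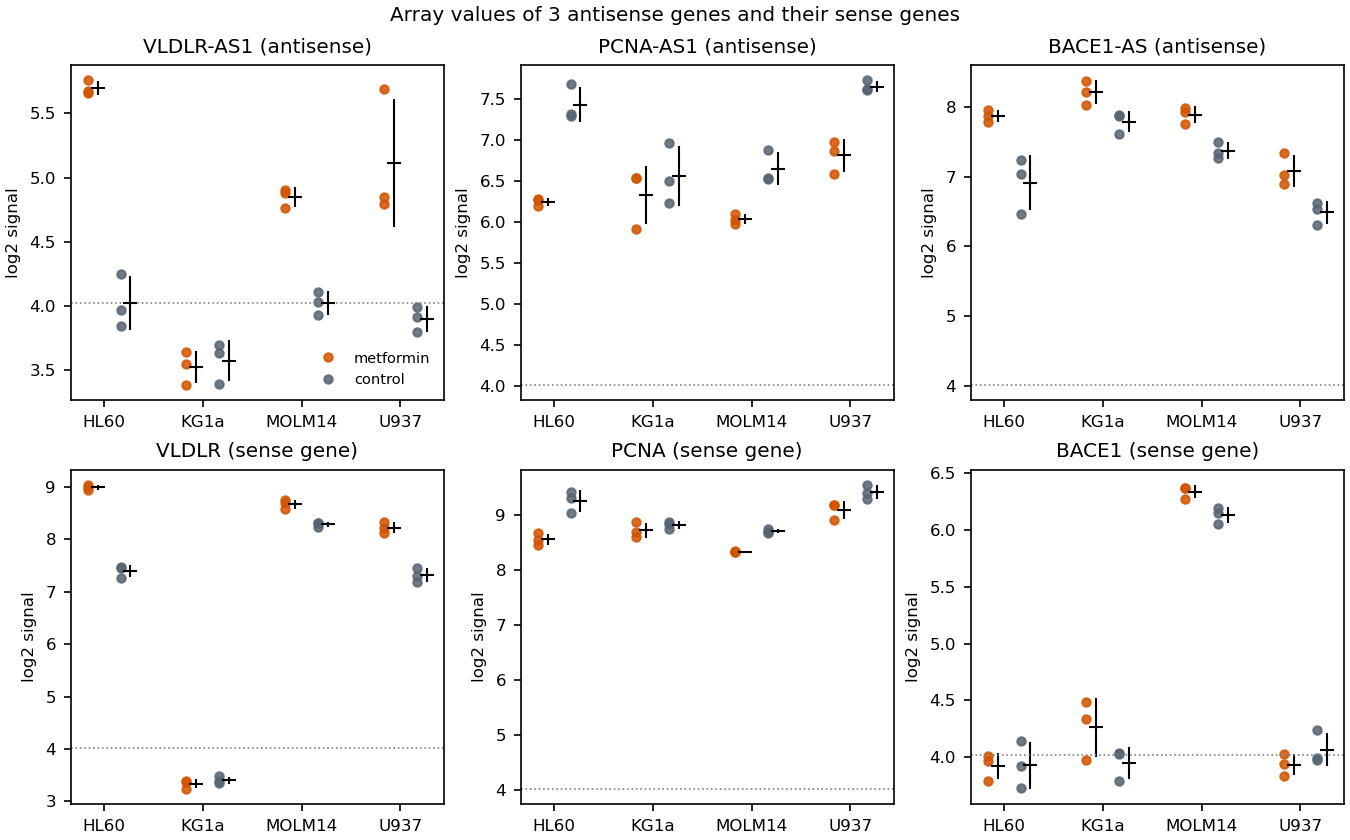
Log2 signal of VLDLR-AS1, PCNA-AS1 and BACE1-AS and of their sense genes on each of the 24 arrays, with metformin points left of control points in each line and a cross for the group mean with a vertical bar of 1 SD each way. The dotted line is the level minimum of 4.02. VLDLR-AS1 lies under it in KG1a and near it in the controls of the other lines, and BACE1 lies near it in 3 lines.

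GABPB1-AS1 was the 1 member that passed in every line on the values as deposited. GABPB1 is a subunit of the ETS-family factor GABP, known for driving nuclear genes of mitochondrial proteins. GABPB1-AS1 was at 7.55, 7.54 and 7.43 in HL60 with metformin, against 6.92, 7.06 and 6.98 in controls, and at 7.01, 6.94 and 6.86 in KG1a with metformin, against 6.54, 6.68 and 6.62. It was at 6.41, 6.55 and 6.67 in MOLM14 with metformin, against 6.21, 6.19 and 6.19, and at 8.25, 8.03 and 8.07 in U937 with metformin, against 7.90, 7.90 and 7.79. No metformin array overlapped the controls of its line. The log2 changes were 0.52 in HL60 (adjusted p 3.68e-05), 0.32 in KG1a (0.0336), 0.34 in MOLM14 (0.0111) and 0.25 in U937 (0.0334), each with an SE of 0.08. The HL60 call held without any 1 HL60 array, while the KG1a call held in 1 of 6 such fits, the U937 call in 2 of 6 and the MOLM14 call in 5 of 6. After centring on array medians the adjusted p was 0.0618 in KG1a and 0.0535 in U937. Without the arrays that lay apart the U937 change was 0.15 (0.342).

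PAXIP1-AS2 and SOCS2-AS1 each rose in 3 lines. PAXIP1 is a BRCT-domain protein of the DNA damage response, and SOCS2 is a suppressor of cytokine signalling. PAXIP1-AS2 was at 7.15, 7.08 and 7.02 in HL60 with metformin, against 6.64, 6.64 and 6.52 in controls, and rose there by 0.48 (adjusted p 0.00706). PAXIP1 went the other way in HL60, at 8.12, 7.84 and 7.85 with metformin against 8.31, 8.26 and 8.34 in controls, and fell by 0.37 (0.00283). PAXIP1-AS2 rose in MOLM14 (0.44, 0.0444) and U937 (0.41, 0.0269), and these calls held in 2 and 3 of 6 fits without 1 array of the line. Without the arrays that lay apart the U937 change was 0.26 (0.19). On the mean of 4 lines the changes were 0.40 ± 0.06 for PAXIP1-AS2 (3.6e-05) and -0.17 ± 0.04 for PAXIP1 (0.0037), and their difference was 0.57 (exact permutation p 5e-05). SOCS2-AS1 was at 5.03, 5.18 and 4.99 in HL60 with metformin, against 4.43, 4.20 and 4.39 in controls, a rise of 0.73 (3.05e-07). SOCS2-AS1 rose in MOLM14 (0.38, 0.00533) and KG1a (0.36, 0.0168, held in 2 of 6 fits), while in U937 the change was 0.05 (0.765). SOCS2 changed by -0.03 on the mean (0.696). Outside MOLM14 the SOCS2 group means were between 4.185 and 4.549, near the lower end, where a change would be compressed.

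PCED1B-AS1 fell in 3 lines. It was at 3.79, 4.10 and 3.92 in HL60 with metformin, against 4.68, 4.86 and 4.82 in controls, and at 5.92, 5.79 and 5.77 in MOLM14 with metformin, against 6.72, 6.56 and 6.78 in controls. Neither line had overlapping arrays. The fall was 0.85 ± 0.11 in HL60 (adjusted p 6.15e-06) and 0.86 in MOLM14 (4.05e-05) in size, and the U937 change of -0.33 (0.047) passed in 1 of 6 fits without 1 U937 array. In KG1a the change was -0.17 (0.539). PCED1B fell in MOLM14 by 0.65 (0.000686), where it was at 4.10, 3.95 and 3.88 with metformin and 4.63, 4.56 and 4.70 in controls. The antisense change was the more negative by 0.38 over the 4 lines (difference -0.38, exact permutation p 1.25e-05). PCED1B was under the level minimum in HL60 and U937, with control means of 3.71 and 3.55, where a fall would be compressed. The HL60 difference of -0.67 was the largest of the 4 in size.

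NHSL1-AS1 rose in HL60 and MOLM14 only among the 4 line tests. It was at 4.83, 4.87 and 4.73 in HL60 with metformin, against 3.79, 3.51 and 3.58 in controls, and at 4.62, 4.67 and 4.80 in MOLM14 with metformin, against 3.76, 3.65 and 4.003 in controls. It reached the level minimum only in these metformin groups, so the filter kept it through the values that were high. The rise was 1.18 ± 0.11 in HL60 (adjusted p 1.8e-08) and 0.89 in MOLM14 (1.22e-05), and the changes in KG1a (-0.10, 0.763) and U937 (-0.02, 0.943) did not pass. NHSL1 rose in HL60 (0.75, 8.31e-07) and MOLM14 (0.76, 5.91e-06), and also in U937 (0.71, 5.91e-06), where it was at 5.91, 5.75 and 5.82 with metformin and 5.14, 5.19 and 5.01 in controls. In U937 NHSL1-AS1 stayed at 3.44 to 3.79 in all 6 arrays.

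**Figure D3:**
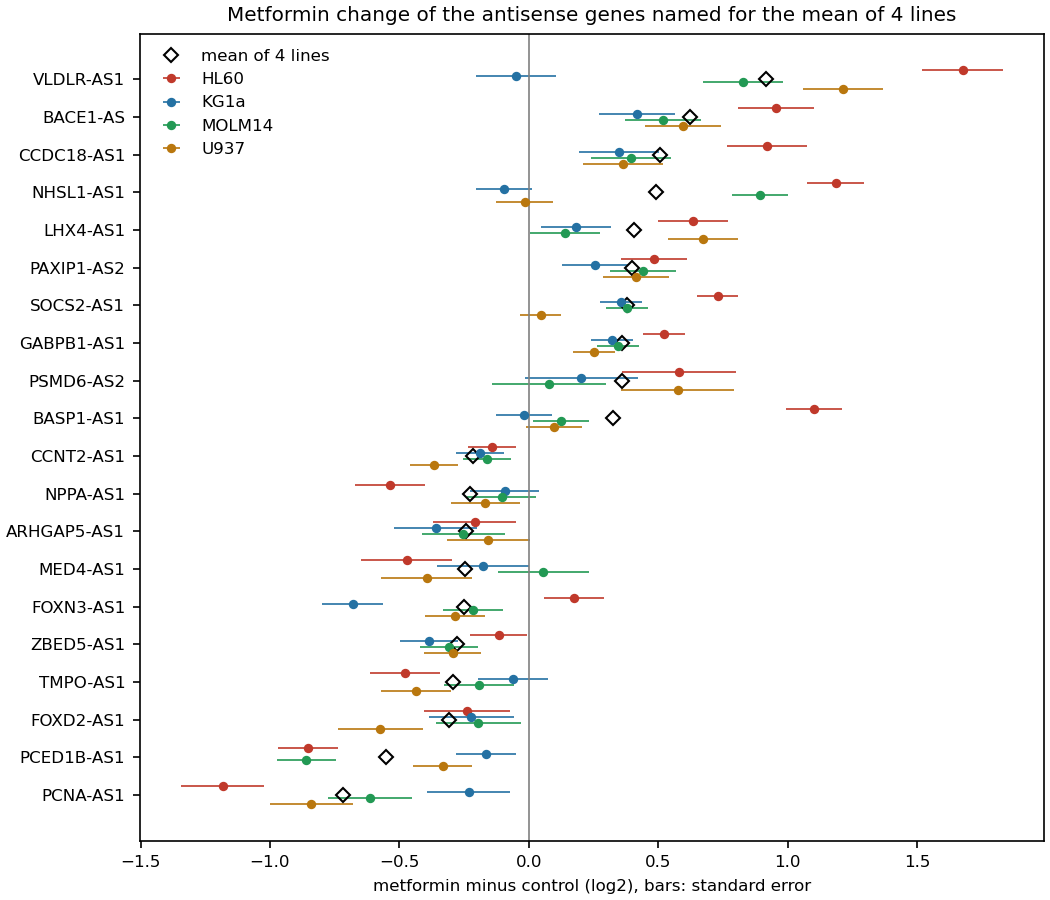
Metformin minus control change on the log2 scale for the antisense genes with the largest rises and falls on the mean of 4 lines, with a point and standard error bar for each line and an open diamond for the mean. VLDLR-AS1 is widest between lines, from -0.05 in KG1a to 1.67 in HL60, and GABPB1-AS1 is narrow, from 0.25 to 0.52.

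The other large rises on the mean were CCDC18-AS1 (0.51 ± 0.08, adjusted p 2e-05), LHX4-AS1 (0.41 ± 0.07, 5.43e-05), PSMD6-AS2 (0.36 ± 0.11, 0.0138) and BASP1-AS1 (0.33 ± 0.05, 5.23e-05). CCDC18-AS1 was at 6.09, 5.86 and 6.12 in HL60 with metformin, against 5.23, 5.01 and 5.07 in controls, a rise of 0.92 (9.97e-05). BASP1-AS1 moved in HL60, at 4.48, 4.48 and 4.45 with metformin and 3.13, 3.42 and 3.55 in controls (1.10 ± 0.11, 4.98e-08), and it was between 3.15 and 3.69 on every array of the other lines. That group with metformin is the one that brought it over the level minimum. LHX4-AS1, opposite a LIM homeobox gene of pituitary development, was at 6.95, 6.74 and 6.84 in HL60 with metformin, against 6.18, 6.46 and 5.99 in controls. In U937 LHX4-AS1 was at 6.79, 6.22 and 6.34 with metformin, against 5.84, 5.78 and 5.72 in controls. It rose in both low OXPHOS lines, by 0.63 in HL60 (0.00117) and 0.67 in U937 (0.0013). PDCD4-AS1, opposite the gene of an inhibitor of translation initiation, was at 5.49, 5.73 and 5.75 in HL60 with metformin, against 4.65, 4.93 and 4.81 in controls (0.86 ± 0.12, 1.18e-05). PDCD4 rose there too, by 1.13 on the log2 scale.

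The other large falls on the mean were smaller than those of PCNA-AS1 and PCED1B-AS1. FOXD2-AS1 fell by 0.31 ± 0.08 (adjusted p 0.00546), TMPO-AS1 by 0.29 ± 0.07 (0.00167), ZBED5-AS1 by 0.28 ± 0.06 (0.000461) and FOXN3-AS1 by 0.25 ± 0.06 (0.00166). MED4-AS1 fell by 0.25 ± 0.09 (0.0343), ARHGAP5-AS1 by 0.24 ± 0.08 (0.0214), NPPA-AS1 by 0.23 ± 0.07 (0.0117) and CCNT2-AS1 by 0.21 ± 0.05 (0.000874). The MED4-AS1 call on the mean held in 22 of 38 alternative fits. TMPO encodes a protein of the nuclear lamina, FOXN3 a forkhead repressor, MED4 a Mediator subunit and CCNT2 a cyclin of the elongation factor P-TEFb. TMPO-AS1 was at 6.42, 6.49 and 6.75 in HL60 with metformin, against 7.32, 6.998 and 6.77 in controls, with the nearest arrays only slightly apart. TMPO-AS1 was at 6.58, 6.70 and 6.51 in U937 with metformin, against 7.09, 7.07 and 6.95 in controls. The U937 fall of TMPO-AS1 (-0.44, 0.0269) held in 2 of 6 fits without 1 array.

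KG1a had the fewest calls. FOXN3-AS1 was at 4.73, 4.91 and 4.97 in KG1a with metformin, against 5.28, 5.61 and 5.76 in controls, a fall of 0.68 ± 0.12 in size (adjusted p 0.00181). FOXN3 was at 7.82, 7.78 and 7.75 in KG1a with metformin, against 7.73, 7.42 and 7.63 in controls, and it rose on the mean of 4 lines (0.22, 0.00201). PRRT3-AS1 was at 5.09, 5.16 and 4.88 in KG1a with metformin, against 4.62, 4.44 and 4.50 in controls (0.52, 0.00346). Both calls held without any 1 KG1a array. SLC7A11-AS1, opposite the cystine transporter gene, rose in KG1a (0.43, 0.0235), where it was at 4.29, 4.15 and 4.33 with metformin and 3.93, 3.81 and 3.75 in controls. That call held in 2 of 6 fits, and SLC7A11-AS1 was over the minimum only with metformin. USP30-AS1 (0.37, 0.0498) and FGD5-AS1 (-0.32, 0.0353) passed in KG1a, each in 1 of 6 such fits.

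In MOLM14, WT1-AS was at 5.61, 5.32 and 5.54 with metformin, against 5.13, 5.02 and 5.02 in controls, and rose by 0.43 (adjusted p 0.0099). WT1 encodes a zinc finger factor often high in acute myeloid leukaemia. DLGAP1-AS3 changed by -0.60 in MOLM14 (0.00651). That call held in 4 of 6 fits without 1 array of the line, and the WT1-AS call in 5. In U937, THAP9-AS1, the brightest member, rose by 0.55 (0.00379), a call that held in all 6. FAM13A-AS1 changed by 0.54 in U937 (0.0174), held in 3 of 6 fits, and by 0.26 (0.348) without the arrays that lay apart. FOXD2-AS1 changed by -0.57 (0.0172, held in 3 of 6), MORF4L2-AS1 by -0.43 (0.0137, held in 4 of 6) and LCT-AS1, whose arrays overlapped, by -0.39 (0.0367, held in 2 of 6). Both U937 means of LCT-AS1 were under the level minimum, at 3.44 with metformin and 3.83 in controls. Without the arrays that lay apart the adjusted p was 0.068 for MORF4L2-AS1 and 0.0908 for LCT-AS1.

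The function lists are read beside the 32.3% of all genes that passed on the mean, 16.3% higher and 16.1% lower. On the list headed immune and signalling, set by sense gene name, 3 of 7 members rose on the mean and none fell. These were PRKCQ-AS1 (0.26, adjusted p 0.000752), TAPT1-AS1 (0.30, 0.00654) and TNFRSF14-AS1 (0.18, 0.0054). TAPT1 was listed by name, and its place under that heading was not checked. The median change of the 7 was 0.17, against -0.01 for all genes tested. Of 6 members at metabolic genes, VLDLR-AS1, SLC7A11-AS1 (0.32, 2.66e-05) and ASMTL-AS1 (0.23, 0.00146) rose. SLC7A11-AS1 reached the level minimum only with metformin, so the filter kept it through the values that were high. Its p-value is a description. CKMT2-AS1 (0.10), SLC25A25-AS1 (0.15) and UGDH-AS1 (0.05), at genes of mitochondrial creatine kinase, a mitochondrial carrier and UDP-glucose dehydrogenase, did not pass. Of 4 at transcription regulators, WT1-AS rose (0.14, 0.0344) and FOXN3-AS1 fell, while ZEB1-AS1 (0.04) and ZEB2-AS1 (0.11) did not pass. The WT1-AS call on the mean held in 22 of 38 alternative fits. Of 6 in the HOX clusters, HOXA11-AS rose (0.17, 0.00699). None of 9 members at ZNF genes passed on the mean. The lists follow sense gene names, and no role in these processes is known for most of the antisense RNAs.

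For 144 of the 267 members the sense gene passed the filter too. For 34 the sense gene was on the array but under the minimum, and for 89 it was not among the named array rows used here. On the mean of 4 lines both genes passed in the same direction in 13 pairs, 8 higher and 5 lower, and in opposite directions in 5. The antisense gene alone passed in 18 pairs, the sense gene alone in 38, and neither in 70. The higher pairs were VLDLR, NHSL1, CCDC18, PDCD4, TAPT1, PAN3, USP30 and ZSWIM8, and the lower pairs were PCNA, PCED1B, MED4, TMPO and VAC14. Of the lower pairs, the MED4-AS1 call held in 22 of 38 alternative fits and the TMPO call in 25 of 39. The sign of the change, called or not, was the same in 78 of 144 pairs (54.2%). Across the 144 pairs the 2 changes had a Pearson r of 0.35 and a Spearman rho of 0.14, as a description across genes of the same 24 arrays, in which genes are not independent.

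The opposite pairs had small changes in at least 1 partner. PAXIP1-AS2 rose and PAXIP1 fell, as given above. SH3BP5-AS1 rose by 0.32 and SH3BP5 fell by 0.15, STARD7-AS1 rose by 0.22 and STARD7 fell by 0.14, and TMEM147-AS1 rose by 0.16 and TMEM147 fell by 0.18. FOXN3-AS1 was the 1 pair with the antisense gene lower and the sense gene higher.

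**Figure D4:**
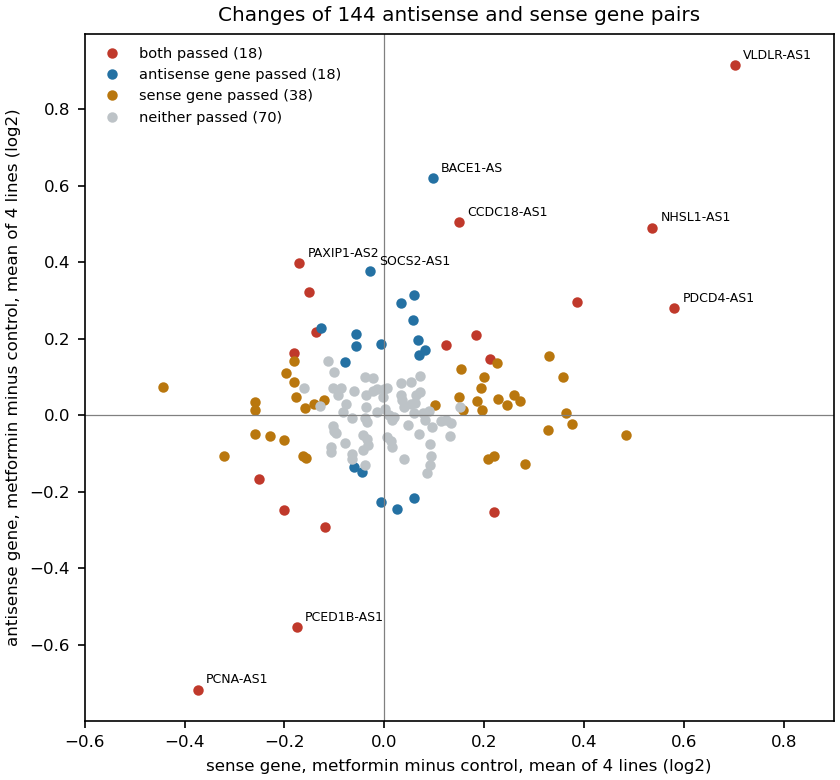
Metformin minus control change on the mean of 4 lines, antisense gene (vertical, log2) against its sense gene (horizontal, log2), for the 144 pairs in which both passed the level filter, coloured by which partner passed the adjusted p threshold. VLDLR lies at the upper right and PCNA at the lower left, while BACE1-AS and SOCS2-AS1 lie high with a sense gene near 0.

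By line, both partners passed in the same direction in 13 pairs in HL60, 4 in MOLM14 and 2 in U937, with none in KG1a. The MOLM14 pairs were NHSL1, PCED1B, PCNA and VLDLR, and the U937 pairs were PCNA and VLDLR. Opposite calls came in 4 pairs in HL60 (FBXL19, KDM4A, PAXIP1 and ZNF143), 1 in U937 (PAXIP1) and none in MOLM14 or KG1a. The PAXIP1 call in U937 held in none of 6 fits without 1 array, and the PCNA call in MOLM14 held in none either.

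The difference between antisense and sense change was tested on the arrays in the 24 pairs that the rule for named genes chose, with labels permuted within lines. An unadjusted exact permutation p under 0.05 was found in 16 of 24 pairs, with the antisense change higher in 7 and lower in 9. Beside the pairs above, these included FOXN3 (-0.47, p 0.00025), CCNT2 (-0.27, 0.000288), SOCS2 (0.41, 0.000125), CCDC18 (0.36, 0.00139) and PDCD4 (-0.30, 0.00276). GAS5-AS1 differed by -0.32 (0.00774) from GAS5, itself a noncoding host gene of small nucleolar RNAs. NHSL1 did not pass over the 4 lines (-0.05, 0.712), where the antisense change exceeded the sense change by 0.43 in HL60 and was below it by 0.73 in U937 (difference -0.73). Most of these antisense genes were named for a large change of their own, so the pairs are not a sample of all pairs. BACE1, PCED1B and SOCS2 were near the lower end in several lines, where a change of the sense gene would be compressed.

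Pairs with calls in both genes came from each kind of arrangement. RefSeq windows placed both genes in 181 pairs, all on opposite strands. The antisense start lay upstream of the sense start in 35, inside the sense gene in 100 and beyond its end in 46. Of these, 71 pairs had starts within 1000 bases, and 29 had windows sharing a run of at least 20 bases. Each gene was placed by the start of its window used here, and other annotated starts were not compared. An antisense start upstream of that point was not checked against the full span of the sense gene. Both genes could be tested in 99 placed pairs. Same-direction calls were 2 of 20 upstream pairs, 8 of 53 inside pairs and 1 of 26 pairs beyond the end. Of the 17 tested pairs with shared windows, none had both genes past the threshold, 3 had the antisense gene alone and 7 the sense gene alone. The CCNT2 windows shared 285 bases and the WT1 windows 78, with starts 216 and 21 bases apart. No source used here gives the probe design or the strand that each array row reads, so signal from the other strand where the genes overlap was not tested.

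The change differed between the 4 lines in 21 of 267 members, by limma's F test, where 10% of all genes passed. The difference between the label classes, high OXPHOS (KG1a and MOLM14) minus low OXPHOS (HL60 and U937), passed in 8 members, 2 higher and 6 lower, or 3%, against 6.69% of all genes (2.05% higher and 4.64% lower). Leaving out 1 array gave 4 to 10, with 5 without KG1a control array B (5.76% of all genes) and 4 without MOLM14 control array C (5.23%). Each class is 2 lines, and without HL60, KG1a or U937 the count was 3, 2 and 20. The shares of all genes were then 2.57%, 2.57% and 9.76%. VLDLR-AS1 had the largest negative difference at -1.06 (adjusted p 0.000112), and it rose in MOLM14, a high OXPHOS line, too. In KG1a, the other high OXPHOS line, VLDLR-AS1 and VLDLR were both under the level minimum. RAB11B-AS1, opposite a GTPase of recycling endosomes, differed by -0.66 (0.0063): it was at 5.73, 6.19 and 5.81 in HL60 with metformin, against 5.55, 5.55 and 5.33 in controls. In KG1a RAB11B-AS1 was at 5.78, 5.78 and 5.72 with metformin, against 6.33, 6.13 and 6.20 in controls, so the arrays of the 2 lines moved in opposite directions, and of the 2 the HL60 change alone passed (0.43, 0.0309). The HL60 call held in 4 of 6 fits without 1 of its arrays and was lost after quantile normalisation (0.139).

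Untreated levels are given as a description, since the members were chosen on level. The widest range between untreated line means was 5.40, for ZNF667-AS1, at 9.29 in KG1a, 7.87 in HL60, 4.12 in MOLM14 and 3.89 in U937. ZNF667-AS1 fell with metformin in HL60, to 7.49, 7.43 and 7.36, against 8.07, 7.83 and 7.72 in controls (-0.45, adjusted p 0.00268). HOXA10-AS, from the HOXA cluster that is active in immature blood cells, was highest in untreated KG1a, at 8.30, 8.15 and 8.45, and lowest in HL60, at 4.19, 4.25 and 4.56. MOLM14 and U937 lay between, at 6.70, 6.32 and 6.36 and at 5.99, 6.21 and 5.73. ZEB2-AS1 was highest in untreated MOLM14, at 8.17, 8.31 and 8.40, and lowest in KG1a, at 4.93, 4.40 and 4.34. In U937 and HL60 controls it ran from 6.46 to 7.67 and from 5.71 to 6.92, and these 2 overlapped. ZEB2, a zinc finger repressor, had the same highest and lowest line, with 8.53, 8.64 and 8.50 in MOLM14 and 6.17, 6.18 and 5.85 in KG1a. TRHDE-AS1 was at 6.49, 6.26 and 6.56 in untreated MOLM14 and between 3.23 and 3.96 in the other lines, and TRHDE was at 6.75, 6.62 and 6.62 in MOLM14 and between 3.45 and 3.89 elsewhere. GLYATL1-AS1 was at 6.05, 6.17 and 5.83 in untreated KG1a and between 2.95 and 3.40 in the other lines.

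**Figure D5:**
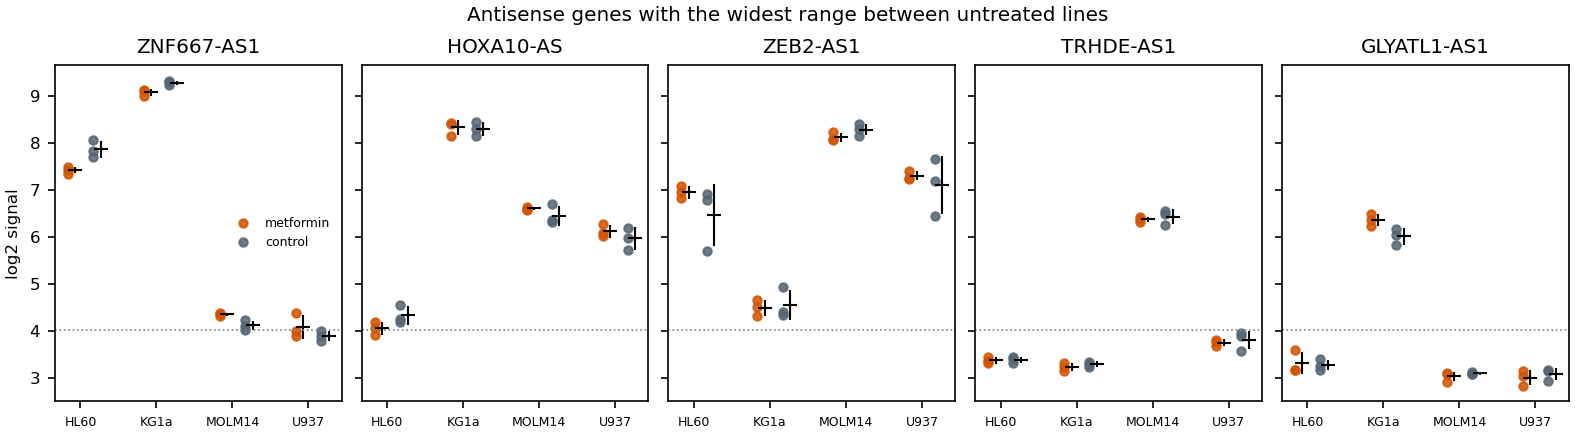
Log2 signal on each array of the 5 antisense genes with the widest range between untreated line means, with metformin points left of control points in each line, a cross for the group mean with a vertical bar of 1 SD each way, and the level minimum of 4.02 dotted. ZNF667-AS1 is at 9.29 in untreated KG1a and 3.89 in untreated U937, a wider gap than any metformin change of these genes.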

How the data were processed

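RNA on 24 arrays (4 lines, metformin or control, 3 arrays per group) was labelled with the GeneChip WT PLUS kit, per the labels' protocols, and the submitters' processing notes list Partek. The deposited series table holds 1 value per row and array, between 1.88 and 14.2, read here as log2 from its range; the normalisation is not given in the sources used here, and array counts, not depth, limit precision. Of 53617 rows, 16098 had 1 gene name and 37519 had none.

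For each gene the row brightest on average over 24 arrays was kept; 10641 genes with a group mean of at least 4.02 were fitted with limma 3.58.1 (R 4.3.3), 8 group means, Benjamini-Hochberg adjustment over all of them and a threshold of 0.05. A change is metformin minus control. Of the 267 members, 19 had several rows, and in 13 of these every pair of rows correlated at r over 0.5. Pair differences used a two-sided exact permutation test over all 160000 relabellings within lines, unadjusted over 24 pairs. The members, lists and tests were chosen with earlier results of these data known. Named genes were the 3 of the rule, the 10 largest rises and falls on the mean, the 5 each way per line and for the class difference, the 5 brightest, the 5 with the widest untreated range, their sense genes, and members of lists by sense gene. Genes outside it (the other pair calls and members at the level edge) were named to complete small counts after their values were seen. The fit was tested on simulated data first, and alternatives are in the closing section.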

Additional observations from a re-analysis of the deposited data

Results flagged for a closer look

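The metformin change of some antisense genes differed between groups of lines, by a test of the difference itself. The F test over the 4 lines gave limma adjusted p-values of 1.84e-06 for NHSL1-AS1, 4.07e-05 for BASP1-AS1 and 5.51e-05 for VLDLR-AS1. NHSL1-AS1 and BASP1-AS1 reached the level minimum only in metformin groups, so the filter kept them through the groups in which they were high, and their p-values are a description. It gave 0.00208 for SOCS2-AS1, 0.00402 for PDCD4-AS1, 0.00547 for ZNF667-AS1, 0.00664 for PCED1B-AS1 and 0.00866 for FOXN3-AS1. RAB11B-AS1 had 0.0124, PCNA-AS1 0.0368 and GAS5-AS1 0.0408. The PCNA-AS1 call held in 15 and the GAS5-AS1 call in 10 of 24 fits that each left out 1 array, and the other 9 calls given so far held in all 24. The remaining 10 members had 0.00288 (DLGAP1-AS1), 0.0067 (ATP2B1-AS1), 0.024 (ST3GAL6-AS1), 0.0245 (CLIP1-AS1), 0.028 (VPS9D1-AS1), 0.0312 (HOXA11-AS), 0.0322 (TNFRSF14-AS1), 0.0365 (TSC22D1-AS1), 0.038 (MAMDC2-AS1) and 0.0492 (MCM3AP-AS1). These 10 were named to complete the count, after their values were seen.

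The difference in change between the high OXPHOS lines and the low OXPHOS lines, on the log2 scale, was -1.06 for VLDLR-AS1 (adjusted p 0.000112), -0.66 for RAB11B-AS1 (0.0063) and -0.55 for BASP1-AS1 (0.00241). VLDLR-AS1 was under the level minimum in both KG1a groups. BASP1-AS1 was kept by the filter through HL60 with metformin, so its p-value is again a description. The difference was -0.53 for PDCD4-AS1 (0.00897), -0.49 for LHX4-AS1 (0.0276, and 0.103 without the arrays that lay apart) and -0.39 for FOXN3-AS1 (0.0435). It was positive for PCNA-AS1 (0.59, 0.0272) and GAS5-AS1 (0.51, 0.0361). GAS5-AS1 was at 5.47, 5.04 and 5.14 in HL60 with metformin, against 5.89, 5.88 and 5.48 in controls, and at 6.12, 6.05 and 6.06 in MOLM14 with metformin, against 5.83, 5.65 and 5.76. The calls of FOXN3-AS1 and GAS5-AS1 each held in 8, those of PCNA-AS1 in 18 and LHX4-AS1 in 19 of 24 fits without 1 array. With 2 lines per class, class and line cannot be told apart.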

How the results depend on the processing

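No value past the threshold changed sign, while changes near 0 that had not passed did, as for GAS5-AS1 and RAB11B-AS1 on the mean. Quantile normalisation, the mean of a gene's array rows, moderation with an intensity trend and no level filter gave 65, 64, 64 and 71 (of 489) members on the mean, and kept each count within 1.5 times. The shares of all genes on the mean were 34.8%, 32.1%, 32.9% and 22.1% in the same order. For the 42 named genes past the threshold on the mean, 1498 of 1625 alternative values stayed past it and 127 did not. For the 21 that had not passed, 807 of 813 stayed so and 6 passed. The pair differences kept their side of the threshold in 662 of 696. A level filter at the 75th percentile left 75 members, of which 37 passed on the mean, where 45.8% of all genes left passed. The count of members on the mean (64) was 42 without HL60 (20.7% of all genes). It was 7 with each line as 1 value (4.38% of all genes), and 58 to 68 when 1 array was left out (29.9% to 32.9% of all genes). With each line as 1 value VLDLR-AS1 had an adjusted p of 0.0528. With that level filter 35 of the 75 passed in HL60, with 36.7% of all genes (56 of 267 and 25.1% in the main fit). It gave 3 in KG1a, with 4.83% of all genes (7 and 2.49%), and 13 for the F test, with 15.2% (21 and 10%). The KG1a count was 4 after centring on array medians, 11 without the 3 arrays that lay apart and 3 when fitted on its 6 arrays alone, and the U937 count (25) was 12 so. The shares of all genes were 1.79%, 4.42% and 0.78% in KG1a and 7.96% in U937. The F count was 3 without HL60 and 12 without KG1a, and the class count (8) was 3 without HL60, 2 without KG1a and 20 without U937. Of all genes, 2.95% and 6.04% passed the F test in those fits. For the class difference the shares were 2.57%, 2.57% and 9.76%. Without 1 array the counts were 34 to 59 in HL60, 2 to 8 in KG1a, 6 to 12 in MOLM14, 13 to 31 in U937, 4 to 10 for the class difference, 15 to 23 for the F test and 14 to 17 of the pair differences. The shares of all genes moved too: 19% to 26.4% in HL60, 0.912% to 3.01% in KG1a, 2.89% to 5.71% in MOLM14 and 10.7% to 18.8% in U937. They were 5% to 7.56% for the class difference and 7.72% to 11% for the F test. BASP1-AS1, PDCD4-AS1, NPPA-AS1 and PSMD6-AS2 did not pass on the mean without HL60, nor FOXN3-AS1 without KG1a, nor FOXD2-AS1 and PSMA3-AS1 without U937. These are not all the calls that depended on the fit. WT1-AS and MED4-AS1 each stayed past the threshold on the mean in 22 of 38 alternative fits, FAM13A-AS1 in 25 and DLGAP1-AS3 in 27. The causes were not tested. Centring on the median of the genes tested was chosen after seeing the data; with it the members' median change in HL60 was -0.06 (0.04 as deposited) and that of all genes -0.10 (0 as deposited).

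Array letters are shared between groups. Same-lettered metformin and control arrays of a line deviated together at r between -0.06 and 0.15. These low correlations cannot show what the letters mark, and the labels do not say. With the letter as a replicate block the counts were 68 on the mean, 56 in HL60, 7 in KG1a, 10 in MOLM14, 26 in U937, 9 for the class difference and 23 for the F test. Of all genes, 32.2%, 24.4%, 2.2%, 4.71%, 16.9%, 6.71% and 9.58% passed. With line and letter as a replicate block the counts were 66, 53, 2, 10, 21, 9 and 15 in the same order. The shares of all genes were then 31.6%, 23.9%, 1.25%, 3.84%, 15.6%, 5.92% and 8.19%.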

Other observations

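HOXA11-AS, from the HOXA cluster, was at 6.77, 7.05 and 6.91 in U937 with metformin, against 6.46, 6.42 and 6.27 in controls, a rise of 0.53 ± 0.10 on the log2 scale (SE, limma adjusted p 0.000495). Its changes of 0.04 in HL60 and 0.13 in MOLM14 did not pass, nor did that in KG1a, where all 6 arrays were between 3.81 and 3.91.

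KDM4A encodes a histone demethylase. In HL60 with metformin KDM4A-AS1 was at 5.26, 4.98 and 4.86, against 5.28, 5.57 and 5.29 in controls, with little between the nearest arrays, and it changed by -0.35 ± 0.12 (adjusted p 0.0435). KDM4A was at 7.90, 7.96 and 7.80 in HL60 with metformin, against 7.44, 7.30 and 7.12 in controls, and rose by 0.60 ± 0.09 (1.61e-05). TPT1-AS1 was at 5.11, 5.34 and 5.22 in HL60 with metformin, against 4.72, 4.68 and 4.64 in controls, and rose by 0.55 ± 0.11 (0.000501).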
